A study of Homo sapiens with 19 samples.

Results

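Strongly bone-metastatic derivatives of MDA-MB-231 were set against strongly lung-metastatic ones. The groups were formed from the array titles: the 4 arrays titled as strongly bone metastatic (lines 1833, 2274, 2268 and 2269) and the 4 titled as strongly lung metastatic (lines 4142, 4173, 4175 and 4180), which are 8 of the 19 arrays of the series. MDA-MB-231 is a human breast cancer line of basal, mesenchymal character that lacks oestrogen receptor. All lines descend from it, and no agent, allele or transgene was named for either group beyond the selective drugs kept in the medium. Lines 1833 and 4175 were profiled as the original sublines after a short culture. RNA came from cells harvested from culture before confluence, so no bone or lung tissue was sampled, and each line is a cell line with 1 array. The spread within a group is therefore a spread between lines, and p-values do not measure the variation between cultures of a line. The series also held the parental line (1 array), 3 weakly bone-metastatic lines (2293, 2295 and 2296), 3 weakly lung-metastatic lines (SCP21, SCP6 and SCP26), and 2 ploidy sublines each of 1833 and 4175, 1 modal and 1 hyper-ploid. The line titled 2296 is called 2297 in its cell line label.

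Breast cancer cells that settle in bone destroy it indirectly. They release factors such as interleukin 11, connective tissue growth factor and parathyroid hormone-related protein, which make bone-lining cells activate osteoclasts, and the resorbed matrix frees TGF-beta that acts back on the tumour cells. Cells that settle in the lung must cross tight capillary walls and survive in an unfamiliar matrix, for which cyclo-oxygenase 2, epiregulin, angiopoietin-like 4, tenascin C and VCAM1 are known contributors. Lists of bone and lung metastasis genes were drawn up in earlier published work on lines of this same family, 1833 and 4175 among them. Their direction in these lines is therefore not independent evidence.

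Values are array signals, the brightness summary of a probe set, recovered from deposited ratios and scaled to 1 common array median. Signals are listed in the order 1833, 2274, 2268 and 2269 for bone and 4142, 4173, 4175 and 4180 for lung. A difference is the mean of log2(signal + 16) in the bone lines minus that in the lung lines, which understates the change of dim genes, and its SE and adjusted p come from limma with Benjamini-Hochberg adjustment over the 9546 genes tested. A gene was called at an adjusted p under 0.05. A gene is called dim where it lay at or below its array's 40th percentile of signal, between 71.7 and 94.2. Where a whole group was dim, the fold is given as a lower bound against that percentile level.

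The arrays of the bone and the lung lines differed in control probe sets, and they were deposited as 2 separately divided sets, with the bone lines in the first and the lung lines in the second. Probe sets for 18S ribosomal RNA, which should be largely absent from labelled messenger RNA, had a mean log2 signal of 4.83 to 5.98 on the strong bone arrays and 10.88 to 12.70 on the strong lung arrays. The exact permutation test gave p = 0.0286, the smallest that 4 against 4 arrays can give. Hybridisation spike-ins averaged 11.31 to 11.66 on the bone arrays and 10.44 to 10.97 on the lung arrays, with the same exact p. The log2 ratio of 3' to 5' probe set signal of ACTB, a measure of RNA integrity, was -0.41 to -0.07 on the bone and -0.0084 to 0.19 on the lung arrays, again without overlap (exact p = 0.0286), and that of GAPDH overlapped (exact p = 0.486). All 4 strong lung arrays stood apart in 18S signal, as did SCP21 (12.03) and SCP26 (11.33), whereas SCP6 (5.44), the weak bone lines (5.11 to 6.01) and the 4 ploidy sublines (3.25 to 6.20) did not. Leaving out the arrays that stood apart would leave no lung group. Target organ and array set cannot be told apart in the strong lines, so the 4 ploidy arrays, 2 of 1833 against 2 of 4175 with low 18S signal on all of them, are given beside the results as values with no test. These sublines are divided over the same 2 sets, 1833 in the first and 4175 in the second, so they do not separate organ from set either. All these control levels were read before the scaling to a common median. On that unscaled basis the spike-ins of the ploidy sublines (9.52 to 9.77) lay below those of all other arrays. Their median signals (89.3 to 97.8) did so too, so the low spike-ins cannot be told apart from generally dimmer arrays. The ploidy sublines share their lines of origin with 1 bone and 1 lung array, but not the arrays.

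**Figure D1:**
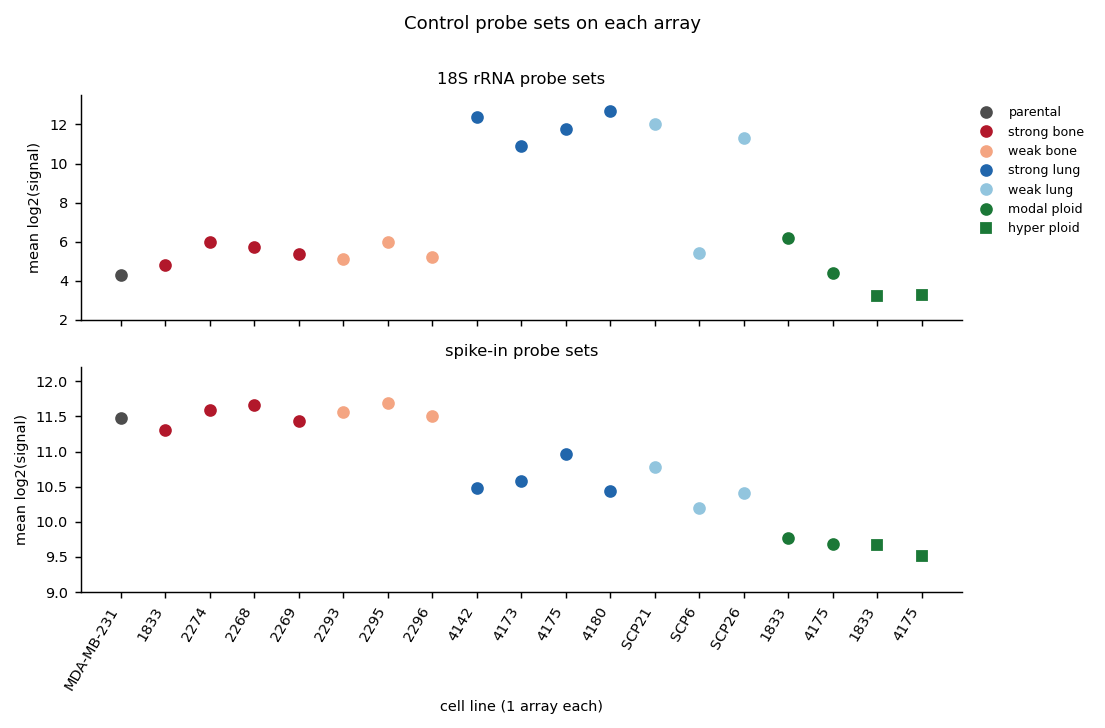
Mean log2 signal before scaling (vertical axes) of the 18S ribosomal RNA probe sets (upper panel, 6 probe sets) and of the spike-in probe sets (lower panel, 18 probe sets) on each of the 19 arrays (horizontal axis, named by cell line), coloured by group. The 4 strong lung arrays sit at 10.88 to 12.70 for 18S against 4.83 to 5.98 for the 4 strong bone arrays, and the ploidy sublines of 4175 lie with the low arrays.

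The genes that define MDA-MB-231 matched its description in part on the 8 arrays. Vimentin (VIM), the intermediate filament of mesenchymal cells, had mean signals of 33036 in bone and 23707 in lung lines, and E-cadherin (CDH1) and the progesterone receptor (PGR) were dim on all 8. Oestrogen receptor (ESR1), which the line is said to lack, was dim on none of them by the brightest of its 3 kept probe sets. Its mean signals there were 131 in bone and 140 in lung lines. GATA3 (657 and 417) and KRT18 (9597 and 9545), also on the list, were not dim either. Of the defining genes of MDA-MB-231, 11 were tested and 2 were called, moesin (MSN) at 0.59 and caveolin 1 (CAV1) at -0.50. The MSN and CAV1 calls were lost without any of 7 and of 5 of the 8 strong lines in turn (adjusted p 0.0544 to 0.129 and 0.0566 to 0.0772). CAV1 also lost its call with the mean of all kept probe sets (adjusted p = 0.0995). Of 14 leukocyte markers on the array, PTPRC, MS4A1, LYZ, TYROBP and CORO1A were dim on all 8 arrays. The summed leukocyte signal was 2600 to 4232 in bone and 6443 to 7196 in lung lines. LAPTM5, a lysosomal membrane protein, gave the greater part of both sums (1837, 2799, 2117 and 2972 against 5794, 5993, 6186 and 5275). Of 12 endothelial and stromal markers, 5 were dim on all 8 arrays (CDH5, VWF, TIE1, LUM and PDGFRB), and the summed signal was 889 to 1345 in bone and 1348 to 1836 in lung lines. Of the leukocyte markers tested, LAPTM5 (-1.28) and HCLS1 (-1.13) were called, and of the endothelial and stromal ones DCN (-0.82), PECAM1 (-0.78) and COL1A1 (-0.71), all higher in lung lines. The last 3 calls rested on few lines: 2 were left without 4173, 1 without 1833, 2274 or 4180 and 0 without 2268, 4142 or 4175. No bone cell or lung cell marker was called, among 4 and 6 tested.

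In total 2194 of 9546 genes (23.0%) were called between strong bone and strong lung lines, 1217 higher in bone (12.7%) and 977 higher in lung (10.2%). At an unadjusted p under 0.05 the share was 37.6%. Of the called genes, 840 differed more than 2-fold, 464 higher in bone and 376 higher in lung. The 4 bone and 4 lung values did not overlap for 2882 genes (30.2%), 1951 of them among the called ones. The direction of the majority depended on the scaling between arrays. With a common trimmed mean 1130 genes were higher and 1453 lower in bone, and with quantile normalisation 1222 and 1405. The median difference of all genes was 0.01 with the common median and -0.10 with the trimmed mean, so a difference near 0.1 has no settled direction. Without both 1833 and 4175, the 2 lines that also gave ploidy sublines, 944 genes were called (9.89%). Without 1 line the number was 2418 for 2269 and 1499 to 1668 for the others, so counts within gene lists are to be read against these totals where a line is left out.

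Among the largest rises in bone lines were members of 2 families of small secreted proteins and a protein that helps fold secreted ones. CST1, an inhibitor of cysteine proteases found in saliva and tumours, had signals of 8949, 15794, 18941 and 10677 in the bone lines and 105, 1089, 599 and 675 in the lung lines. All bone lines were far above all lung lines, with a difference of 4.74 (SE 0.86, adjusted p = 0.00226) and log2 levels of 13.67 ± 0.50 against 8.93 ± 1.39 (SD, n = 4 each). The neighbouring cystatins CST2 (3.27, SE 0.61) and CST4 (3.25, SE 0.70) were called in the same direction. Their coding sequences are so alike that their probe sets may read each other's transcripts, so the 3 are not independent results. CST3 (cystatin C), the widely expressed member, did not pass (0.49, adjusted p = 0.160), and CST6, a cystatin often silenced in breast tumours, was higher in lung lines (-1.24, adjusted p = 0.0303).

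The trefoil factors, mucosal repair peptides that oestrogen receptor induces in other breast cancer lines, were higher in bone lines for all 3 members. TFF1 signals were 2050, 2944, 2503 and 1742 in bone and 246, 86.6, 61.3 and 135 in lung lines, a difference of 4.10 (SE 0.52, adjusted p = 0.000331). TFF2 stood at 1173, 1221, 1267 and 1410 against 79.6, 169, 50.0 and 69.3 (3.68, SE 0.45), and TFF3 at 2.51 (SE 0.45, adjusted p = 0.00197). The spread of TFF2 within the bone lines was small, 0.11 on the log2 scale, against 0.63 in the lung lines. AGR2, a disulfide isomerase of the secretory pathway, stood at 1462, 1965, 1108 and 1359 against 119, 326, 36.5 and 191 (3.29, SE 0.45, adjusted p = 0.000501). Oestrogen receptor itself (ESR1) had mean signals of 131 and 140 on its brightest probe set and was not called (-0.12, adjusted p = 0.667). Its 3 kept probe sets were all higher in lung lines, with differences from -1.33 to -0.12.

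The parental array, 1 array in the same deposited set as the bone lines, lay between the groups for CST1, TFF1, TFF2 and AGR2. CST1 was 3280 in the parental line, 1.98 below the bone mean and 2.76 above the lung mean on the log2 scale. TFF1 (603 in the parental line) and AGR2 (699) also lay between the groups, by 1.88 and 1.03 below bone and 2.22 and 2.26 above lung. TFF3 was at 60.1 in the parental line, below all bone and all lung lines.

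Several other genes high in bone lines encode secreted or enzymatic proteins. ADAMTS1, a protease that cuts aggrecan and versican, had signals of 1162, 1601, 1638 and 903 in bone and 136, 61.8, 59.3 and 118 in lung lines. Its difference was 3.64 (SE 0.37, adjusted p = 8.29e-05), and the parental line (37.4) was close to the lung lines. GDF15, a stress-induced member of the TGF-beta family, was at 2410, 3368, 3173 and 2012 against 329, 346, 342 and 245 (3.04, SE 0.36), with 605 in the parental line. AKR1C2 and AKR1C1, near-identical reductases of steroids and prostaglandins, were at 3.01 (SE 0.57) and 2.45 (SE 0.52), while the relative AKR1C3 was not called (0.30, adjusted p = 0.785). In AKR1C2 the lung line 4142 was lowest (163, against 460, 742 and 802), as it also was for CST1.

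A second kind of rise was one in which the bone lines resembled the parental line and the lung lines were low. PNPLA4, a lipid hydrolase, had signals of 439, 551, 408 and 452 in bone, 20.4, 26.6, 19.3 and 24.9 in lung lines and 481 in the parental line. It was dim on all 4 lung arrays and thus at least 5.05-fold higher in bone (3.62, SE 0.40, adjusted p = 0.000125), although its second probe set showed no such difference (-0.18). FCGRT, the receptor that recycles antibodies and albumin, was dim on all 4 lung arrays and at least 4.79-fold higher in bone (3.41, SE 0.49), with 483 in the parental line. WT1, a zinc finger transcription factor, had signals of 172, 245, 137 and 104 against 5.55, 8.22, 5.50 and 6.10, and 141 in the parental line (2.96, SE 0.31, adjusted p = 0.000102, at least 1.72-fold). EFEMP1, a fibulin of elastic matrix, varied little among bone lines (3062, 3317, 3230 and 3105) and was at 281, 507, 354 and 690 in lung lines, with 4172 in the parental line (2.83, SE 0.28). HP1BP3, a histone H1-like chromatin protein, completed the 14 largest rises (2.93, SE 0.81, adjusted p = 0.0199). The HP1BP3 call was lost without 4142 (adjusted p = 0.0544) or 4180 (0.0624).

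The largest fall, and the largest difference of any named gene, was SPARC. SPARC (osteonectin) is a collagen-binding glycoprotein abundant in bone matrix and also a published mediator of lung colonisation. Its signals were 9.13, 7.70, 4.29 and 59.7 in the bone lines and 3291, 3018, 3864 and 2820 in the lung lines. It was dim on all 4 bone arrays and thus at least 38.0-fold higher in lung lines (-6.71, SE 0.39, adjusted p = 1.08e-06), and its second probe set also had it higher there (-4.29). The parental line (4.87), the weak bone lines (6.16 to 17.8) and the weak lung lines (3.35 to 41.8) were all as low as the bone lines. The ploidy sublines gave 33.8 and 28.1 for 1833 and 3481 and 3497 for 4175, a difference of -6.22.

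IL13RA2, a decoy receptor for interleukin 13, followed the same pattern with more spread. It stood at 14, 8.02, 22.4 and 9.46 in bone and 230, 3210, 4138 and 1472 in lung lines, at least 17.2-fold higher in lung (-5.68, SE 0.68, adjusted p = 0.000205). The line 4142 was the lowest lung line by a wide margin. The parental line was at 7.47.

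For another group of falls the parental line resembled the lung lines and the bone lines were low. S100A2, a calcium-binding protein of basal epithelium, had signals of 734, 511, 445 and 508 in bone, 3730, 10547, 13394 and 4592 in lung and 6325 in the parental line (-3.66, SE 0.39, adjusted p = 0.000113). Periplakin (PPL), a desmosomal linker, was dim on all 4 bone arrays and at least 3.37-fold higher in lung lines (-3.39, SE 0.24, adjusted p = 3.43e-06). DLC1, a tumour suppressor, was at 142, 236, 142 and 183 against 1463, 1683, 1799 and 1290, and 1295 in the parental line (-3.06, SE 0.19, adjusted p = 1.51e-06). The second probe set of DLC1 gave a smaller difference (-0.60). APBA2, an adaptor of amyloid precursor protein (-3.30, at least 4.06-fold), and NLRP2, a regulator of inflammatory signalling (-2.90, at least 2.91-fold), were likewise near the parental level in lung lines. For COL7A1 and ITGB4 the parental array lay within 2-fold of neither group mean. ITGB4, the hemidesmosomal integrin, was at 354, 309, 213 and 219 against 1886, 2286, 2483 and 980 (-2.68, SE 0.34). COL7A1, the collagen of the anchoring fibrils that hold epithelium to its base, was lower in bone too (-3.20, SE 0.49).

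The remaining large falls were MAGEB2 (-3.04) and SPANXB1 (-2.94), cancer-testis antigens, APOBEC3G (-2.59, at least 3.19-fold), a cytidine deaminase against retroviruses, TM7SF3 (-2.53, at least 1.41-fold, with 1 lung array dim as well), a membrane protein of stress signalling, and ADIRF (-2.51), a regulator of fat cell genes. SPANXB1 rested on unequal lung lines (5599 in 4142 against 659, 672 and 1106 in the others), and near-identical copies of the gene exist. Its call was lost without 2274, 2268 or 4142 (adjusted p 0.0639, 0.0547 and 0.0700).

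Among called genes over 2-fold and higher in bone, the parental array lay within 2-fold of the bone mean and not of the lung mean for 214 of 464 (46.1%) and the reverse held for 66 (14.2%). Among those higher in lung, 155 of 376 (41.2%) lay near bone only and 81 (21.5%) near lung only. The parental array belongs to the array set of the bone lines, so nearness to bone and nearness within the set cannot be told apart.

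**Figure D2:**
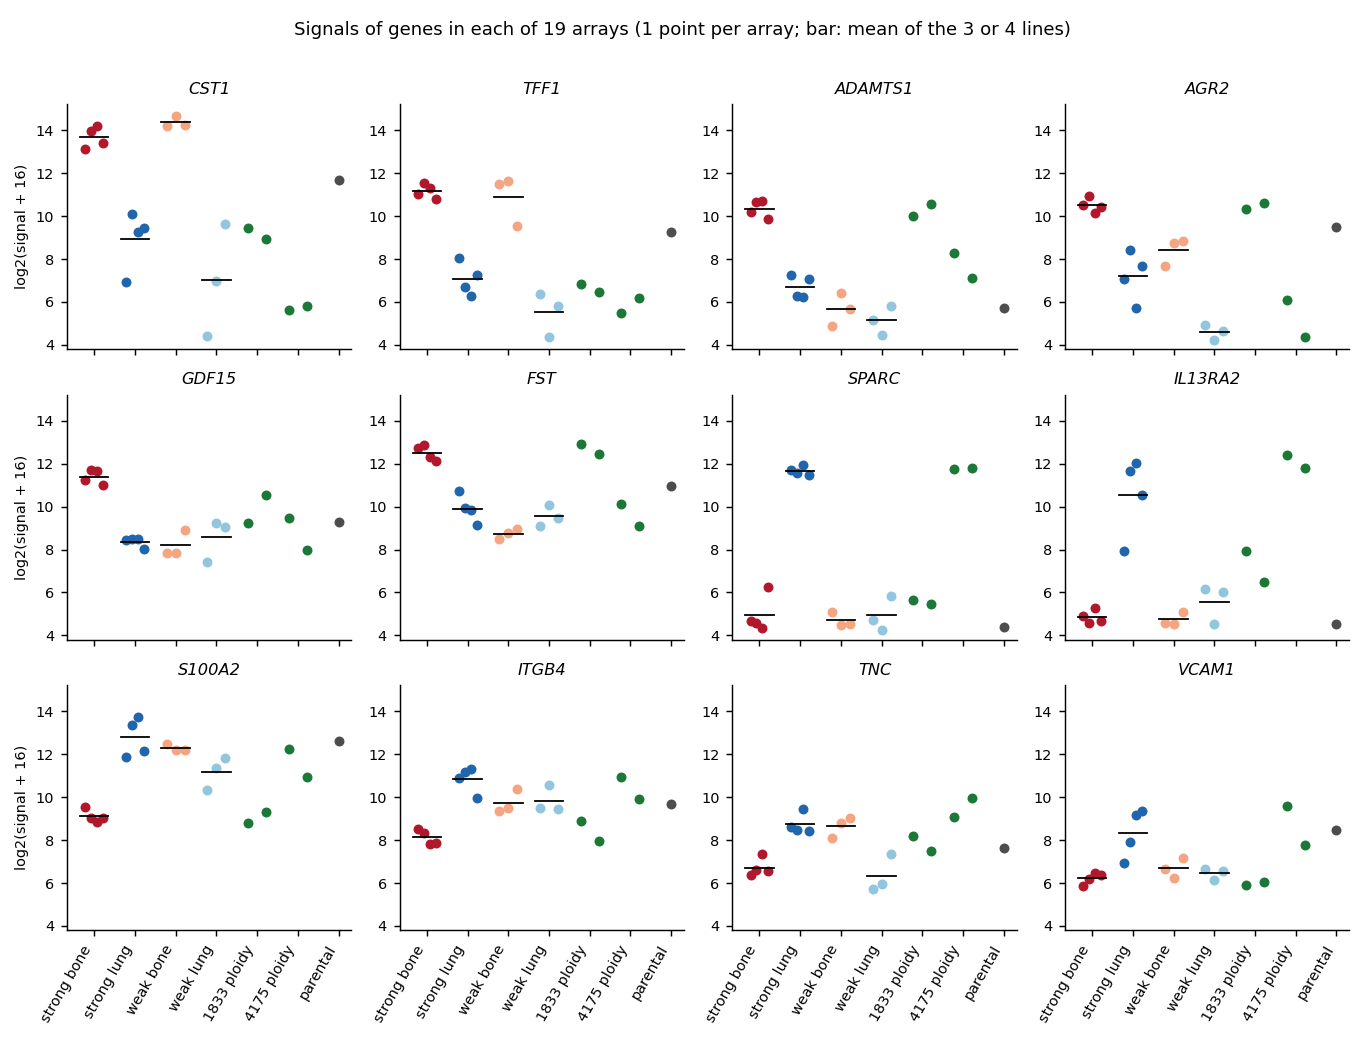
Log2(signal + 16) (vertical axes) of 12 genes on all 19 arrays, grouped along the horizontal axis, 1 point per array, with a bar at the mean of the 3 or 4 lines of a group. CST1, TFF1, ADAMTS1, AGR2, GDF15 and FST are higher in the 4 strong bone than the 4 strong lung lines, and SPARC, IL13RA2, S100A2, ITGB4, TNC and VCAM1 are lower, with no overlap in any of the 12 panels.

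Of the 8 bone metastasis genes, 5 were higher in bone lines and none was lower, where 23.0% of all genes were called in either direction. Their median difference was 1.33, against 0.01 for all genes tested, and all 8 differences were positive. ADAMTS1, described above, is a member. The osteolytic cytokine interleukin 11 (IL11) had signals of 2100, 3050, 2618 and 1203 in bone and 1548, 192, 327 and 388 in lung lines. The lung line 4142 overlapped the bone lines in IL11, and the other 3 did not (2.21, SE 0.58, adjusted p = 0.0153). Follistatin (FST), which binds activin, was clearly separated at 6867, 7403, 5105 and 4432 against 1658, 970, 887 and 557 (2.60, SE 0.30, adjusted p = 0.000184). The chemokine receptor CXCR4, which directs cells to marrow rich in CXCL12, was at 1169, 1888, 537 and 668 against 206, 278, 226 and 250 (1.92, SE 0.30). Its 3 probe sets gave differences of 1.92 to 4.07. Connective tissue growth factor (CCN2) was at 5616, 6391, 7994 and 5095 against 4052, 4057, 4037 and 3308, above the parental line (1314) in both groups (0.68, SE 0.22, adjusted p = 0.0377).

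Of the 8, MMP1, SRGN and FGF5 did not pass. The collagenase MMP1 was at 5818, 9329, 2896 and 5451 in bone and 4265, 1985, 2543 and 5108 in lung lines, with overlap, and at 552 in the parental line (0.74, SE 0.51, adjusted p = 0.313). Serglycin (SRGN), a granule proteoglycan, was at 0.58 (adjusted p = 0.258), and the growth factor FGF5 at 0.26 (adjusted p = 0.488). The FGF5 result depended on the probe set: the 3 kept ones ranged from 0.26 to 2.28, and their mean was called (adjusted p = 0.000514), as was the mean for SRGN (adjusted p = 0.0185). The CCN2 call was lost without any of 7 of the 8 strong lines, all but 2269 (adjusted p 0.0570 to 0.107). Without both 1833 and 4175, 3 of the 8 were called, with IL11 at an adjusted p of 0.0813.

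Of the 17 lung metastasis genes measured, 6 were higher in lung lines and 2 were higher in bone lines, beside 10.2% and 12.7% of all genes. The called share was 47.1%. Their median difference was -0.72. Besides SPARC and IL13RA2, the genes higher in lung were ADIRF, VCAM1, TNC and ID1. VCAM1, an adhesion molecule that tethers macrophages, had signals of 42.0, 57.6, 73.6 and 67.5 in bone and 106, 228, 561 and 635 in lung lines, with 337 in the parental line. It was dim on all 4 bone arrays and at least 3.59-fold higher in lung lines (-2.11, SE 0.43, adjusted p = 0.00416). Tenascin C (TNC), a stem cell niche protein of the matrix, was at 66.7, 80.5, 146 and 78.8 against 372, 342, 687 and 331 (-2.03, SE 0.36, adjusted p = 0.00199). ADIRF ranged from 50.4 to 253 in bone and from 275 to 1184 in lung lines. ID1, an inhibitor of differentiation, was at 913, 1712, 2038 and 1746 against 4804, 2937, 2197 and 2007, so that its groups overlapped (-0.86, SE 0.28, adjusted p = 0.0406).

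The 2 lung metastasis genes higher in bone lines were ROBO1, a receptor for SLIT guidance cues (431, 554, 656 and 289 against 139, 168, 221 and 172, a difference of 1.34), and ANGPTL4, which loosens capillary junctions (480, 619, 686 and 333 against 284, 153, 326 and 141, a difference of 1.20). The 9 others did not pass. Epiregulin (EREG), cyclo-oxygenase 2 (PTGS2) and MMP1, which together remodel tumour vessels, had differences of -0.44, -0.36 and 0.74. EREG was at 583 to 927 in bone and 748 to 1148 in lung lines against 220 in the parental line, and PTGS2 at 64.1 to 194 and 114 to 191 against 33.4. Both strong groups therefore lay above the parental array for these 2 genes and overlapped each other. FSCN1 (fascin, an actin bundler) did not overlap between groups but missed the threshold (-0.72, adjusted p = 0.0655), and passed under 6 alternatives, the common trimmed mean (adjusted p = 0.0225) among them. MMP2, a gelatinase, was at -1.62 (adjusted p = 0.0734) and passed under 4 alternatives, of which leaving out 2269 gave the lowest adjusted p (0.0173). NEDD9, a scaffold of focal adhesions, was at 0.89 (adjusted p = 0.0576) and passed under 6 alternatives, with an adjusted p of 0.0207 without 2268. Of the list, 5 were called without 1833, 2274, 4142 or 4173, or without both 1833 and 4175. The ANGPTL4, ROBO1 and ID1 calls were the ones lost, without any of 6, 6 and 4 of the 8 strong lines (adjusted p 0.0573 to 0.125, 0.0595 to 0.0892 and 0.0649 to 0.117).

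**Figure D3:**
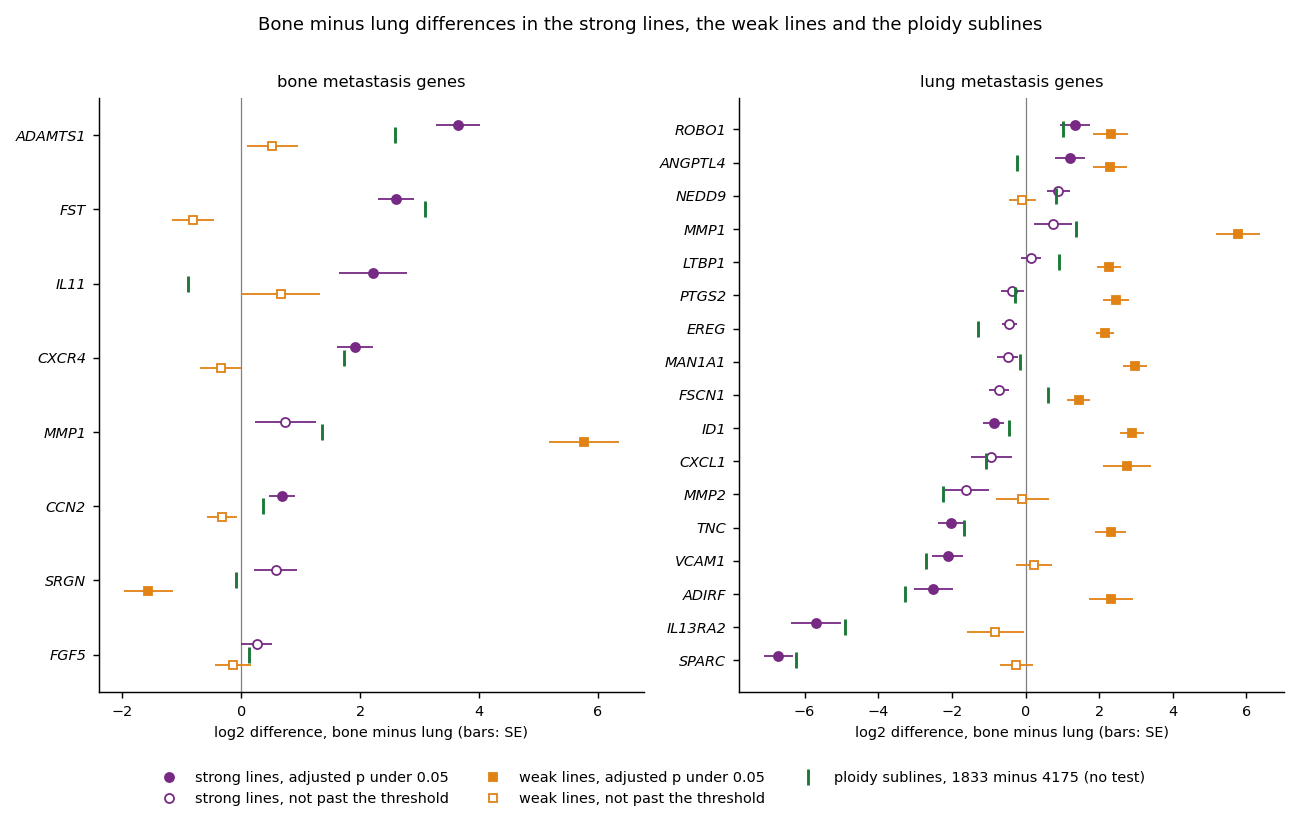
Log2 difference of bone minus lung lines (horizontal axes) for the 8 bone metastasis genes (left) and the 17 measured lung metastasis genes (right), with bars of 1 SE. Circles are strong lines, squares are weak lines, filled where the adjusted p is under 0.05, and green ticks are the ploidy sublines of 1833 minus those of 4175, which have no test. The strong and weak squares and circles lie far apart for MMP1 and for most of the lung list, where 12 of the 17 are higher in weak bone than weak lung lines.

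Matrix genes were the list with the greatest number of calls. Of 47 collagens and other matrix proteins measured, 18 were higher in lung lines and 5 in bone lines, 48.9% of the list against 23.0% of all genes, with a median difference of -0.35. The lung-high members included SPARC, COL7A1, TNC, the basement membrane collagen chain COL4A5 (14, 38.6, 9.49 and 12.5 against 75.8, 133, 237 and 184, a difference of -2.30, SE 0.52, at least 1.71-fold, with 1 lung array dim as well) and TGFBI. TGFBI, a TGF-beta induced adhesion protein, was at 832, 359, 844 and 556 against 1846, 2188, 3518 and 3531, with 3897 in the parental line (-2.09, SE 0.38, adjusted p = 0.00234). The bone-high members were EFEMP1, MATN2, COL8A1 (at least 1.57-fold), COL16A1 and LAMB2. Matrilin 2 (MATN2), a filament-forming adaptor, was at 465, 479, 239 and 219 against 72.6, 84.4, 35.8 and 62.5, with 1124 in the parental line (2.16, SE 0.41, dim on all 4 lung arrays, at least 3.61-fold). Collagen I (COL1A1), the main protein of bone, was slightly higher in lung lines with overlapping groups (345, 325, 288 and 560 against 709, 550, 610 and 592, a difference of -0.71). The median of the 47 genes between the ploidy sublines was -0.42. Without both 1833 and 4175, 12 of the 47 were called, where 9.89% of all genes were, and the COL1A1 call was lost without any of 6 of the 8 strong lines (adjusted p 0.0525 to 0.0780).

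**Figure D4:**
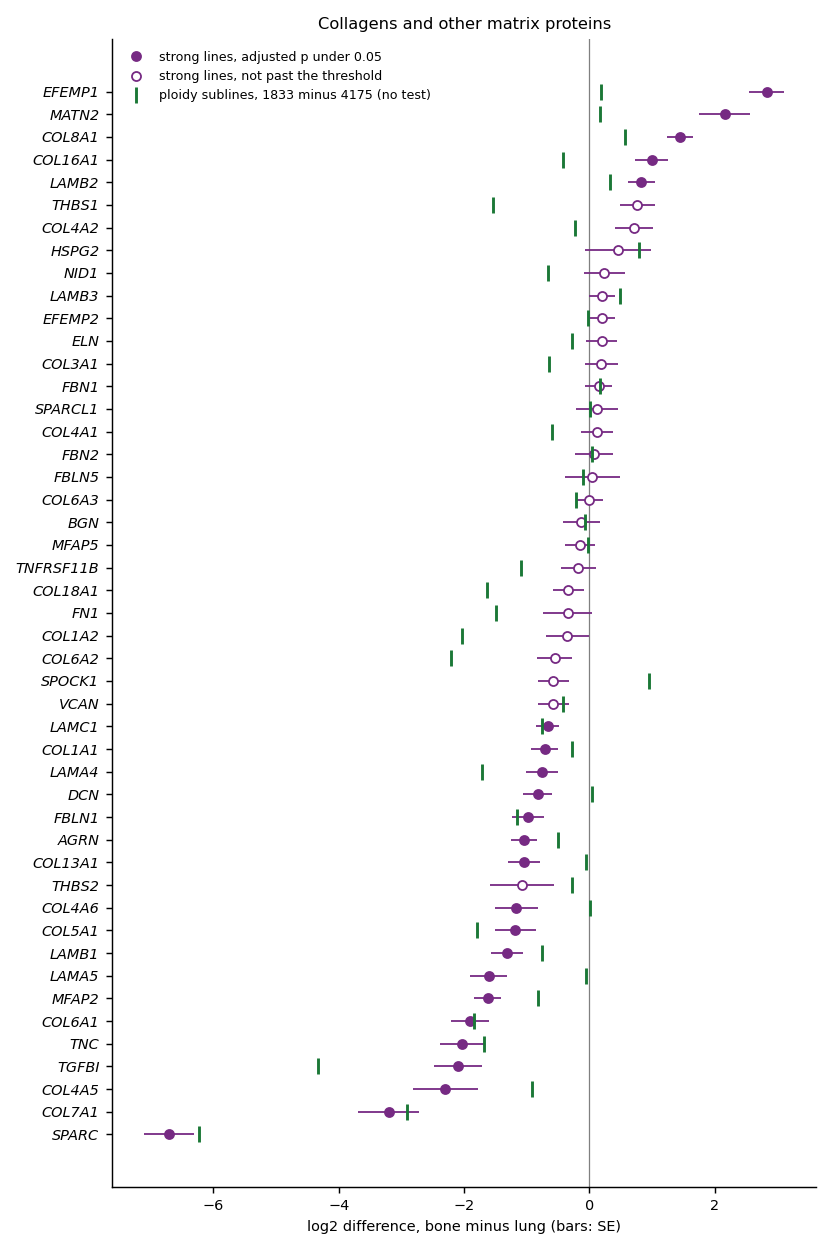
Log2 difference of strong bone minus strong lung lines (horizontal axis, bars of 1 SE) for 47 collagens and other matrix proteins, filled where the adjusted p is under 0.05, with the difference between the ploidy sublines of 1833 and 4175 as green ticks. The 18 members called higher in lung run from SPARC at -6.71 to LAMC1 at -0.66, and the 5 called higher in bone from EFEMP1 at 2.83 to LAMB2 at 0.82.

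Proteases and their inhibitors were split evenly, 7 higher in bone and 7 higher in lung of 43 measured (32.6%). Tissue plasminogen activator (PLAT) was the largest bone-high member after ADAMTS1, at 8733, 7021, 4743 and 5955 against 1644, 1400, 1495 and 1713 (2.04, SE 0.23, adjusted p = 0.000172). The elastase inhibitor SERPINA1 was at 116, 114, 59.3 and 34.5 against 182, 620, 694 and 672 (-2.47, SE 0.61), and the procollagen peptidase ADAMTS3 was dim on all 4 bone arrays (-1.40, at least 1.15-fold). Without 4173, 9 of the 43 were called. Of 28 integrins and adhesion molecules, 3 were higher in bone and 4 in lung lines, a share of 25% that is near the 23.0% of all genes, with ITGB4, VCAM1 and PECAM1 (-0.78) among the latter. ICAM2, a ligand of leukocyte integrins, was at 933, 1383, 888 and 1158 against 519, 409, 438 and 557 (1.14, SE 0.18, adjusted p = 0.00109). Integrin beta 7 (ITGB7), which pairs for gut homing, was at 1.31 with dim values in lung lines. The ITGB7 and PECAM1 calls were lost without any of 6 strong lines each (adjusted p 0.0673 to 0.0978 and 0.0518 to 0.0839), and the integrin count was 4 without 1833, 4175 or 4180. PECAM1 also lost its call with the mean of all kept probe sets (adjusted p = 0.329).

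Factors that act on bone were looked at beyond the signature. Of 13 measured bone matrix and osteolytic factors, 3 were higher in bone lines and 2 in lung lines. DKK1, a Wnt inhibitor that blocks osteoblasts, was at 9649, 12372, 10080 and 6629 against 6176, 3571, 3165 and 3487, and 8774 in the parental line (1.26, SE 0.23, adjusted p = 0.00206). Interleukin 8 (CXCL8), which also activates osteoclasts, was at 3032, 9414, 5809 and 6696 against 1187, 748, 972 and 2662 (2.21, SE 0.68, adjusted p = 0.0323). BMP4, an inducer of bone formation, was at 0.92 with overlap. The CXCL8 and BMP4 calls were lost without any of 6 strong lines each (adjusted p 0.0576 to 0.0872 and 0.0593 to 0.103), and the count of called factors fell to 2 or 3 without any of 7 lines, all but 2269. Of 20 NF-kB targets and inflammatory cytokines, CXCL8 was higher in bone, and the granulocyte factor CSF3 (55.1, 194, 93.5 and 32.8 against 197, 192, 790 and 669, a difference of -2.07) and NFKB1 (-0.54) were higher in lung lines. CXCL1 was not called (-0.93, adjusted p = 0.241).

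TGF-beta response genes moved both ways, 6 higher in bone and 4 higher in lung lines of 22 measured (45.5%), with a median of 0.31. Only 4 of these 10 called genes had the same sign between the ploidy sublines, beside 72.8% of all called genes. The median of the list there was -0.30. In weak lines 8 were called higher in bone and 0 higher in lung. IL11, the ligand TGFB2 (668, 716, 710 and 598 against 461, 262, 336 and 294, a difference of 0.99) and CCN2 were higher in bone. TGFBI, the latent TGF-beta binding protein LTBP3 (-1.98, at least 2.18-fold, dim on all bone arrays) and ID1 were higher in lung. The count was 6 without 2274, 4142 or 4173. Among YAP targets, genes driven by the Hippo pathway effector, 5 of 20 were higher in bone and none in lung lines, a share near the 23.0% of all genes. IGFBP3, which binds insulin-like growth factors, was at 3059, 3061, 3400 and 2431 against 599, 968, 1150 and 890 (1.74, SE 0.20, adjusted p = 0.000184). CRIM1, a membrane regulator of BMPs, was at 2141, 2404, 2008 and 2186 against 1021, 712, 777 and 812 (1.39, SE 0.16, adjusted p = 0.000172). ANKRD1, a muscle ankyrin repeat protein, was at 1.22, a call lost without any of 6 lines (adjusted p 0.0601 to 0.101). The YAP count was 3 without 1833, 2274, 2268, 4175 or 4180, and the median of the list, 0.11, turned to -0.00133 and -0.00682 under the other scalings.

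In BMP and activin signalling, 4 of 26 genes were higher in bone (GDF15, FST, SMAD5 and BMP4) and 2 in lung lines (SMAD1 and ID1), 23.1% of the list and thus the share of all genes. The 2 closely related signal transducers opposed each other, SMAD1 at 63.2, 91.2, 90.8 and 49.7 against 183, 159, 163 and 201 (-1.13, SE 0.27) and SMAD5 at 325, 379, 233 and 193 against 85.1, 155, 203 and 119 (0.94, SE 0.29). SMAD5 lost its call without 1833, 2274, 4142 or 4180 (adjusted p 0.0724 to 0.0894), and the list count was 3 without 1833, 2274 or 4142. Among 15 EGF family genes, neuregulin 1 (NRG1), the ERBB3 ligand, was higher in bone lines at 3942, 4058, 2649 and 2655 against 1084, 549, 480 and 765 (2.22, SE 0.32, adjusted p = 0.000637). NRG1 was read by 5 probe sets, of which 3 shared that sign and the lowest was -0.32. LRIG1, which promotes the breakdown of EGF receptors, was dim on all bone arrays (-2.38, at least 2.23-fold). EGFR itself was not called on its brightest probe set (0.40, adjusted p = 0.15). Its 5 kept probe sets were all higher in bone lines, with differences from 0.38 to 1.41.

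Immediate early genes, the first responders to growth signals, included 7 higher in bone and 4 higher in lung lines of 23 measured. That is 47.8% against 23.0% of all genes, with a median of 0.46. With both other scalings 7 were higher and 6 lower. FOSL2, an AP-1 subunit, was at 1150, 1544, 1491 and 1303 against 402, 272, 340 and 471 (1.86, SE 0.28, adjusted p = 0.00068). JUNB (1.33) and JUND (0.97), its dimer partners, were higher in bone too, whereas FOSL1 (-0.96) was higher in lung lines. The phosphatase DUSP1, which silences MAP kinases, was at 3839, 5552, 3329 and 3086 against 1579, 966, 990 and 955 (1.80, SE 0.25). MYC was at 3320, 3246, 2956 and 2748 against 1692, 1369, 1359 and 1447 (1.06, SE 0.18, adjusted p = 0.00161). KLF10, a TGF-beta induced zinc finger factor, was lower in bone, at 691, 659, 564 and 597 against 1808, 1331, 1787 and 1635 (-1.36, SE 0.21). This list changed little when lines were left out, with 10 to 13 genes called against 11.

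Because AP-1 subunits differed, the 250 bases before each gene start in the RefSeq promoter table (GRCh38.p14) were searched on both strands for the AP-1 letters TGANTCA. The motif was present in 6.57% of all 35116 promoters and in 6.83% of those of genes tested. It was present in 5.74% of promoters of genes called higher in bone (58 of 1011) and 8.83% of those called higher in lung (69 of 781). The 100 bases just before the gene start are printed for 3 genes, to show where the letters lie in 1 gene of each direction and that they are absent there in SPARC, the largest fall. They are written 5′ to 3′ on the gene's strand, with the match in capitals.
IL11 (chr19:55370464-55370563, minus strand): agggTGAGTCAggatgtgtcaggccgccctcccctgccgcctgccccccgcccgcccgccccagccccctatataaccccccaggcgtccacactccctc
S100A2 (chr1:153565845-153565944, minus strand): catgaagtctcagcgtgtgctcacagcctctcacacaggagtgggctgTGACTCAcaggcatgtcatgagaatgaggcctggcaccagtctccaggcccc
SPARC (chr5:151686916-151687015, minus strand): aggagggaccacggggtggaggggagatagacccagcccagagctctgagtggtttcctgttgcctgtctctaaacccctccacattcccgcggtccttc
The match begins 96 bases before the start of IL11, which was higher in bone lines, and 52 bases before the first of 2 listed starts of S100A2, which was higher in lung lines. A match describes letters and is no measured binding site.

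Of 29 interferon-stimulated genes 9 were higher in bone lines and 1 was lower, 34.5% against 23.0% of all genes, with a median of 0.25. IFIT3, an antiviral RNA-binding protein, was at 1495, 2037, 1420 and 1597 against 373, 697, 496 and 886 (1.45, SE 0.33, adjusted p = 0.00766). BST2 (tetherin) was at 1860, 2420, 2388 and 1080 against 740, 604, 580 and 898 (1.39, SE 0.30), and the parental line (2078) was near the bone lines. IFI27 (1.37) and ISG15 (1.22) were called as well. The count was 5 without 1833, 6 without 2274, 4173 or 4175 and 2 without both 1833 and 4175, where the counts over all genes were lower too, and the ISG15 call was lost without any of 5 lines (adjusted p 0.0575 to 0.0861).

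Antigen presentation genes were called in both directions. The peptide transporters TAP2 (473, 509, 754 and 402 against 202, 136, 198 and 203, a difference of 1.44, adjusted p = 0.00103) and TAP1 (1.05) and the class I gene HLA-B (1.05, SE 0.21) were higher in bone lines, as were HLA-C (0.78) and B2M (0.41). The class II gene HLA-DRB1 was lower, at 393, 292, 562 and 321 against 816, 829, 824 and 1069 (-1.18, SE 0.36), and both groups lay below the parental line (3858). Its ploidy sublines differed the other way (0.73). HLA-DOA (-0.89), HLA-DQB1 (-0.87), CIITA (-0.86), which drives class II genes, and the proteasome subunit PSMB10 (-0.52) were also higher in lung lines. In all 5 of the 24 measured genes were higher in bone and 5 higher in lung lines, 41.7% against 23.0% of all genes, with a median of -0.05. Only 4 of these 10 called genes had the same sign between the ploidy sublines, beside 72.8% of all called genes. With quantile normalisation 3 were higher and 7 lower. HLA genes resemble one another and their probe sets may read several. The counts fell to 4 without 2274, 5 without 2268 and 6 without 4173, 4175 or 4180, the HLA-DRB1 call was lost without any of 7 lines (adjusted p 0.0578 to 0.0868) and the TAP1 call without 2274, 2268 or 4173 (0.0591 to 0.0653).

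Hypoxia and glycolysis genes were called higher in bone for 8 and higher in lung for 1 of 27, with a median of 0.33. That is 33.3% of the list against 23.0% of all genes. Between the ploidy sublines 4 of the 9 called genes had the same sign, and the median of the list was -0.14. In weak lines 9 were called higher in bone and none higher in lung. PDK1, which closes off pyruvate from mitochondria, was at 347, 362, 305 and 206 against 36.1, 125, 119 and 26.4 (1.96, SE 0.56), a call lost without 1833, 2274, 4142 or 4180 (adjusted p 0.0525 to 0.0697). The glucose transporter SLC2A1 (0.71), hexokinase 2 (HK2, 0.93) and the mitophagy receptor BNIP3L (1.16) were called too, but a second probe set of each gave 0.03, 0.0049 and -0.26. The count was 2 without 2274, 4 without 4180 and 5 without 2268, 4142, 4173 or 4175. With quantile normalisation 5 were higher and 3 lower.

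Epithelial and mesenchymal markers gave no common direction. Of 24 epithelial genes, 4 were higher in bone and 3 in lung lines. The adaptor AP1M2, specific to polarised epithelia, was at 1481, 1278, 1468 and 1132 against 626, 710, 517 and 534 (1.15, SE 0.20, adjusted p = 0.00179). Keratin 7 (KRT7) was at 988, 967, 874 and 782 against 3080, 1894, 1157 and 1630 (-1.01, SE 0.26). Claudin 1 (CLDN1) was at 1.21 with overlap, and it was dim on all 4 lung and on 2 bone arrays. The CLDN1 call was lost without any of 6 lines (adjusted p 0.0566 to 0.131). The epithelial count was 4 without 2274 or 4180. Of 15 mesenchymal genes, cadherin 11 (CDH11, 0.94), named for osteoblasts, was higher in bone, and SPARC and ZEB1 (-0.57) were higher in lung lines, with the CDH11 and ZEB1 calls each lost without any of 6 lines (adjusted p 0.0589 to 0.106 and 0.0637 to 0.0845). With the mean of all kept probe sets the ZEB1 call was lost too (adjusted p = 0.0788). The mesenchymal count was 1 without 1833, 2274, 4142, 4173 or 4175.

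Among cytoskeletal genes 4 of 29 were higher in bone and 5 in lung lines, 31.0% against 23.0% of all genes, with quantile normalisation 2 and 8 and with the common trimmed mean 3 and 6. Nonmuscle myosin heavy chain MYH10 was at 1044, 1081, 1110 and 1062 against 820, 373, 445 and 296 (1.23, SE 0.30), and the actin crosslinker ACTN4 at 1813, 2377, 2637 and 2979 against 5142, 5818, 5631 and 6297 (-1.24, SE 0.18, adjusted p = 0.00066). Profilin 2 (PFN2, 0.82) was higher in bone and caldesmon (CALD1, -1.14) in lung lines, the latter on 4 of its 6 probe sets. Guidance genes were called higher in bone for 2 and in lung for 5 of 35 (20% of the list), among the latter ROBO3 (-1.77) and the semaphorin receptors PLXND1 (-0.88) and PLXNA1 (-0.86). With the mean of all kept probe sets CALD1 (adjusted p = 0.747) and PLXND1 (0.0539) were not called. The guidance count was 4 without 4173.

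Few proliferation genes were called, beside 23.0% of all genes. Of 33 mitosis genes, CENPA (0.91) and BUB3 (0.75) were higher in bone and NEK2 (-0.97) and RACGAP1 (-0.83) in lung lines, 12.1% of the list. Of 34 replication genes, RRM2 (0.77) was higher in bone and MCM6 (-0.76) and PRIM1 (-0.61) in lung lines, 8.82% of the list. Under quantile normalisation 2 mitosis genes were higher and 5 lower, and none and 4 of the replication genes. The RRM2 and PRIM1 calls were lost without any of 7 and of 6 lines (adjusted p 0.0750 to 0.112 and 0.0607 to 0.111). The replication count was 1 without 2274, 2269, 4142, 4173 or 4175 and 0 without 2268. SQLE (-0.70), squalene epoxidase, was the called one of 19 cholesterol synthesis genes, where both other scalings called 3. Of 19 ribosome and MYC target genes 4 were higher (MYC, WDR43 at 0.90, POLR1C at 0.70 and NPM1) and 2 lower (POLR1B at -0.64 and RRP1B), a count of 3 without 2274, 2268 or 4180. Of 16 p53 targets, GDF15 and XPC (0.58) were higher, and the XPC call was lost without any of 7 lines (adjusted p 0.0588 to 0.114). Among lists given above by counts alone, the called share was 38.5% for bone matrix and osteolytic factors, 29.2% for epithelial and 20% for mesenchymal markers, 15% for inflammatory cytokines and 13.3% for the EGF family, beside the same 23.0%.

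The weak lines gave a second contrast of bone against lung on the same 2 array sets, with different lines. There 1076 genes were called (11.3%), 459 higher in bone (4.81%) and 617 higher in lung (6.46%), and 25.1% had an unadjusted p under 0.05. This split moved with the settings, to 692 higher and 712 lower under quantile normalisation, 698 and 725 with the common trimmed mean, and 728 and 571 without SCP6. Of the strong-line calls 232 were called in the same direction in weak lines, which is 10.6% of the strong and 21.6% of the weak calls, and 170 were called in the opposite direction. Across all 9546 genes, which are not independent, the strong and weak differences had a Pearson correlation of 0.12 and a Spearman correlation of 0.15.

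The cystatins, trefoil factors and AGR2 belonged to the shared calls. CST1 was at 18530, 25954 and 19542 in weak bone lines and 5.43, 108 and 774 in SCP21, SCP6 and SCP26, a difference of 7.37 (adjusted p = 0.000577). TFF1 (5.37), TFF2 (3.98), TFF3 (3.02) and AGR2 (3.84) were also called higher in weak bone than weak lung lines. Of the 14 largest rises 6 were called in the same direction in weak lines and 2 in the opposite one, WT1 (-2.12) and EFEMP1 (-1.95). Of the 14 largest falls none was called in the same direction and 3 in the opposite one, PPL (1.25), ADIRF (2.32) and SPANXB1 (4.70).

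The difference between the 2 contrasts was itself tested, and a shift of equal size in strong and weak lines cancels in it. It was called for 1118 genes (11.7%), 662 positive (6.93%) and 456 negative (4.78%), and 26.3% had an unadjusted p under 0.05. With quantile normalisation the split was 703 and 740, and with the common trimmed mean 669 and 701. Of the strong-line calls 665 (30.3%) had a called difference of differences. Of the 14 largest falls 13 had one, MAGEB2 excepted (-2.29, adjusted p = 0.0843), and of the 14 largest rises 5 had one (ADAMTS1, PNPLA4, GDF15, WT1 and EFEMP1).

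The largest positive differences of differences were in CEMIP, a hyaluronan-degrading protein, C4BPB, a complement regulator, and MATN2. CEMIP had signals of 455, 934, 187 and 374 in strong bone, 104, 81.9, 97.7 and 94.0 in strong lung, 103, 97.4 and 54.8 in weak bone and 476, 1953 and 2133 in SCP21, SCP6 and SCP26. The parental line was at 2112, so that strong lung and weak bone lines were the low groups. The largest negative one was PTPRN2, a phosphatase-like protein of secretory granules, at 5.25, 196, 8.58 and 10.1 in strong bone and 14.8, 1095, 1472 and 1125 in strong lung lines. It was 478 to 703 in weak bone and 5.89 to 11.0 in weak lung lines. Its strong-line call (-3.57, adjusted p = 0.0243) was lost without 1833, 2268, 4173, 4175 or 4180 (adjusted p 0.0620 to 0.0734). SPANXB1, CSF3, SPARC, SERPINA1 and the noncoding RNA LINC01711 followed.

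The lung metastasis genes differed between the weak groups as well. In weak lines 12 of 17 were higher in bone than in lung and none lower, with a median of 2.30, and 13 of 17 had a called negative difference of differences while none had a positive one. MMP1 was at 796, 1206 and 3824 in weak bone and 2.81, 5.66 and 41.9 in weak lung lines (5.77, adjusted p = 9.61e-05). ID1 was at 5193, 4902 and 6224 against 764, 746 and 628, and EREG at 598, 824 and 483 against 136, 133 and 114. Strong lung lines were thus near or below the weak bone lines for ID1 and above the weak lung lines for all 3 genes. SPARC and IL13RA2 were not called in weak lines (-0.25 and -0.82). Of the 8 bone metastasis genes, MMP1 was higher and SRGN (-1.57) lower in weak bone lines, and 4 had a called positive difference of differences (ADAMTS1, FST, CXCR4 and SRGN) and MMP1 a negative one.

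The 18S signal could be set against the differences within the weak lung lines, where SCP21 and SCP26 had it high and SCP6 low, with 1 line on the low side. Of genes called higher in strong lung lines, 37.7% were higher in both SCP21 and SCP26 than in SCP6, against 27.5% of all genes. Of genes called higher in strong bone lines, 67.0% were lower in both than in SCP6, against 48.7% of all genes. Among the 14 largest falls 7 were higher in both and 3 lower in both, and among the 14 largest rises 6 were lower in both and 4 higher in both. SPARC, the largest fall, was at 10.2, 3.35 and 41.8 in SCP21, SCP6 and SCP26, and thus dim on all 3. The part of the 18S difference in any of the calls, SPARC included, was not tested.

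The ploidy sublines repeated the comparison of 1833 with 4175 on arrays with low 18S signal. Of the 2194 called genes 72.8% (1598) had the same sign there, against 60.6% of all genes. The median difference there was 0.30 for the genes called higher in bone and -0.20 for those called higher in lung. With the strong lines 1833 and 4175 left out, so that strong lines and sublines shared no line by title, 708 of 944 calls (75.0%) had the same sign, against 60.2% of all genes. All lines descend from MDA-MB-231, and how closely the remaining ones are related to 1833 and 4175 was not examined. Of the 840 called genes over 2-fold, 160 (19.0%) were over 2-fold in the same direction between sublines and 14 in the opposite one, where 6.88% of all genes were over 2-fold in either direction. Across genes the correlation was 0.34 by Pearson and 0.30 by Spearman, with genes not independent.

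Of the 14 largest rises 13 had the same sign between sublines, 8 of them over 2-fold, and of the 14 largest falls 13, 11 of them over 2-fold. AGR2 was at 1291 and 1557 in the 1833 sublines and 52.5 and 4.43 in the 4175 sublines, FST at 7806 and 5513 against 1093 and 528, and ADAMTS1 at 1013 and 1499 against 294 and 122. IL13RA2 was at 226 and 72.7 against 5384 and 3562, and S100A2 at 426 and 612 against 4881 and 1956. The values of the sublines overlapped for WT1 (4.54 and 52.0 against 25.3 and 21.8), HP1BP3 (880 and 821 against 949 and 627), EFEMP1 (2280 and 1404 against 1204 and 2074) and FCGRT (282 and 133 against 270 and 53.6). They also overlapped for AKR1C2 (512 and 654 against 649 and 260), GDF15 (584 and 1482 against 700 and 234) and TM7SF3 (84.3 and 91.8 against 140 and 77.2). TFF1 was at 98.9 and 73.5 against 28.8 and 57.4, a difference of 0.82 at levels far below those of the strong bone lines. SPANXB1 ran the other way (3209 and 6211 against 380 and 208), as did IL11 (1320 and 2493 against 3932 and 2945). CST1 was at 683 and 480 against 33.9 and 41.1, the same direction at levels well below those of the strong bone lines.

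**Figure D5:**
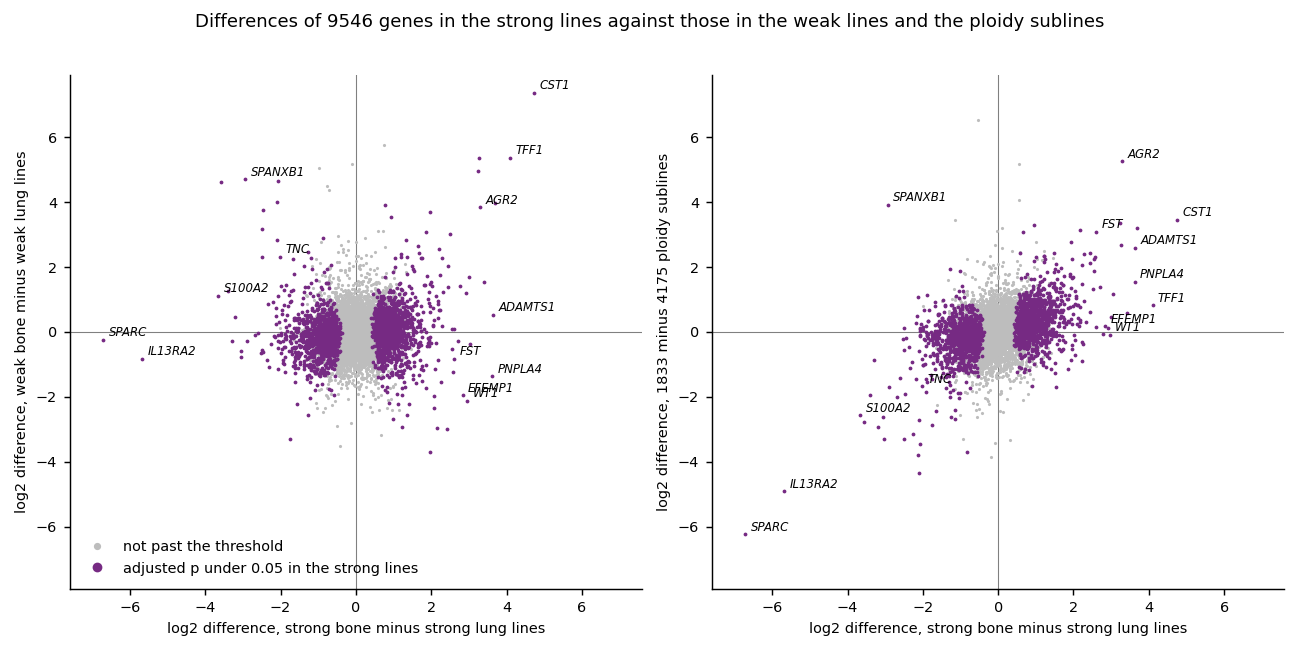
Log2 difference of strong bone minus strong lung lines (horizontal axes) against that of weak bone minus weak lung lines (left, vertical axis) and that of the 1833 minus the 4175 ploidy sublines (right, vertical axis) for 9546 genes, purple where the adjusted p in the strong lines is under 0.05. The left cloud has a Pearson correlation of 0.12 and the right one of 0.34, and SPARC and IL13RA2 lie near 0 on the left vertical axis but at -6.22 and -4.91 on the right one.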

How the data were processed

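RNA from 19 cultured lines was hybridised to Affymetrix arrays of 22283 probe sets, 1 array per line, per the labels. The authors deposited linear ratios, each probe set divided by its own divisor within each of 2 array sets. What was done upstream is not given in the sources used here. Array signals were recovered from these ratios as multiples of 0.1. The tolerance was 0.01 steps, widened in proportion to the value, and the largest distance was 0.0696 steps. The divisor was 10 for 1879 probe sets of the first and 1585 of the second set. With a lowest signal up to 200, 67.3% and 67.6% of probe sets were recovered in the 2 sets. After the ratios were shuffled within arrays, 0% and 0.02% were. Probe sets with a brighter lowest signal were not compared with shuffled ratios. Signals were scaled to a common median and turned into log2(signal + 16). Of the probe sets 19071 had 1 gene symbol, 1043 several and 2169 none, and those with several or none were not named. Probe sets above an array's 40th percentile on at least 2 arrays were kept, the brightest per gene. Strong and weak lines, 14 in all, entered 1 limma fit (limma 3.58.1, R 4.3.3), with Benjamini-Hochberg adjustment over 9546 genes. The fit was tested on simulated data. Comparisons of single array values used exact permutation tests.

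The text names the 14 largest rises and 14 largest falls among called genes, the bone and lung metastasis genes, and leading members of 29 gene lists. The members and lists were chosen with earlier results of these data known. Alternatives were 2 other scalings, other offsets, filters, probe set rules, sample sets and moderation, and leaving out each line. The number of arrays limits the precision. Promoter letters are from RefSeq.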

Additional observations from a re-analysis of the deposited data

Results flagged for a closer look

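In 20 of 244 groups of 4 strong lines checked (8.20%), 1 line lay far from the other 3, where chance alone flags about 1 group in 20. Line 4142 was the far one among lung lines for PPL (185, against a median of 332 in the other 3), MAGEB2 (162 against 661), SERPINA1 (182 against 672), DUSP1 (1579 against 966) and PTPRN2 (14.8 against 1125). Line 4180 was it for GDF15 (245 against 342), CCN2 (3307 against 4052), HK2 (684.5 against 516) and HLA-DRB1 (1069 against 824). Line 4175 was far from the others for TNC (687 against 342) and NR4A1 (104 against 41.4), and line 4173 for TAP2 (136 against 202).

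Among bone lines, 2269 stood apart for SPARC (59.7 against 7.70), HP1BP3 (532 against 1165) and WDR43 (400.5 against 568). Line 1833 did so for TM7SF3 (22.7 against 3.73) and LRIG1 (74.9 against 14.6), line 2274 for NR4A1 (94.2 against 189) and PTPRN2 (196 against 8.58), and line 2268 for EREG (927 against 617).

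The bone against lung difference itself differed between strong and weak lines for 1118 genes by the test of the difference of differences in limma. A positive value means a higher bone minus lung difference in strong than in weak lines. Such values were found for CEMIP (5.67), C4BPB (5.43), MATN2 (5.12), WT1 (5.08), PNPLA4 (4.98) and EFEMP1 (4.78). The weak-line difference itself was negative for WT1 (-2.12), PNPLA4 (-1.36, not called) and EFEMP1 (-1.95). Bone metastasis genes with positive values were FST (3.42), ADAMTS1 (3.12), CXCR4 (2.26) and SRGN (2.14), whereas MMP1 was negative (-5.03). SRGN was not called in the strong lines (0.58) and was lower in weak bone than weak lung lines (-1.57). The largest negative values were those of PTPRN2 (-8.18), SPANXB1 (-7.63), CSF3 (-6.70), SPARC (-6.46), SERPINA1 (-6.22) and LINC01711 (-6.11). Of the lung metastasis genes, IL13RA2 (-4.86), ADIRF (-4.82), TNC (-4.34), ID1 (-3.77), CXCL1 (-3.69) and MAN1A1 (-3.46) had the larger negative values. PTGS2 (-2.81), EREG (-2.59), VCAM1 (-2.35), FSCN1 (-2.17) and LTBP1 (-2.12) followed.

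The 18S ribosomal RNA probe sets, which no gene comparison uses, had a mean log2 signal of 11.93 over the strong lung arrays and 4.28 on the parental array.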

How the results depend on the processing

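Each result was recomputed under the alternatives named with the processing. The number of genes called between strong bone and strong lung lines ranged from 1499 to 2418 when 1 line was left out, and was 944 without both 1833 and 4175, which leaves fewer samples. The weak-line count ranged from 560 to 1299 when 1 line was left out, with 560 without 2293, 602 without 2295 and 713 without 2296. The count for the difference between the strong and weak contrasts ranged from 787 to 1404 when 1 line was left out. Quantile normalisation gave 2627 strong-line calls and the common trimmed mean 2583. Of 111 named genes called in the strong lines, 31 lost the call without 1 array, 40 without both 1833 and 4175 and 9 under another scaling, and 0 reversed. LTBP1, which was not called (0.15), ranged from -0.046 without 2268 to 0.357 without 4180. Counts of called members moved by over 1.5 times for 19 of 29 lists without 1 array and for 3 under another scaling. No paired analysis was possible because the lines carry no shared replicate numbers in the labels. Signals near the 40th percentile are little above background, so differences between dim genes are limited by it, and the cause of the changes between settings was not tested.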

Other observations

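Histone genes, whose proteins package DNA, were looked at after their values had been seen. Of 25 tested, 5 were higher in strong bone lines and 3 were lower by the limma fit, where 23.0% of all genes were called, with a median difference of 0.26 against 0.01 for all genes. H2BC12, a histone H2B gene, had signals of 4955, 4892, 3462 and 4283 in bone and 2337, 2527, 2530 and 2753 in lung lines (0.78, SE 0.19, adjusted p = 0.0112). Its neighbour in sequence H2BC12L was at 1.23 and the linker histone H1-2 at 0.57. H2B genes are nearly identical, so their probe sets may share transcripts. Between the ploidy sublines the median was 0.69, with 19 of 25 positive, and between weak lines it was -0.19. H2AC6 was not called (0.94, adjusted p = 0.0509), and its 4 and 4 values did not overlap. The low members H2AC25 (-1.95, at least 2.03-fold), H4C5 (-1.20, at least 1.17-fold, with 2 lung arrays dim as well) and H4C4 (-1.10, at least 1.72-fold) were dim on all 4 bone arrays.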
